A study of Mus musculus with 11 samples.

Results

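The miR-106b-25 cluster is a group of 3 miRNA hairpins, miR-106b, miR-93 and miR-25, each of which gives a 5p and a 3p mature miRNA. Its members were taken by name, as every row of the miRNA table that belongs to 1 of the 3 hairpins, which gave 6 of the 592 miRNAs with values. They were followed in male C57BL/6 mouse embryonic stem (mES) cells that carry floxed Trim71 alleles and Cre-ERT2, a tamoxifen-inducible recombinase, at the Rosa26 locus. Trim71fl/fl cells, which the labels also call WT, were compared with Trim71-/- cells, made from the same conditional cells with 500 nM 4-hydroxytamoxifen (4-OHT) for 2 days and kept in culture for at least 7 days before harvest. The study's methods name the solvent as the treatment of the Trim71fl/fl cells and give a lower dose than the labels do. Their culture after the treatment is shorter than 7 days, which differs from the labels only if these count from the end of the treatment. Both genotypes were grown in serum with LIF and enriched for SSEA-1 on magnetic beads before RNA was taken. The 5 Trim71-/- and 6 Trim71fl/fl libraries came from 2 clones, so that the genotype difference was seen in 2 cell lines of 1 strain and sex. Each Trim71-/- library shares its day number and its clone with a Trim71fl/fl library, with days 1, 5 and 6 from clone 1 and days 3 and 4 from clone E3. The day 2 Trim71fl/fl library had no partner and was left out of the comparisons. Nothing in the labels says that the days were separate cultures, so that p-values measure the spread between days, which may be technical. The mRNA of Trim71 is not in a miRNA table, so that its deletion was not measured here.

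The 3 hairpins are cut from 1 primary transcript that starts at the promoter of Mcm7, a subunit of the helicase that opens DNA for replication. The cluster is a paralog of miR-17-92 and miR-106a-363, and it is abundant in dividing cells and in embryonic stem cells. A mature miRNA finds its mRNAs mainly through its seed, bases 2 to 8, and miRNAs with the same seed are taken to share most targets. miR-106b-5p and miR-93-5p are known to repress Cdkn1a, an inhibitor of the cell cycle, and miR-25-3p to repress Bcl2l11, which promotes apoptosis. The question here was whether the cluster differed between mES cells with and without Trim71, an RNA-binding protein with a RING domain that is itself a target of let-7 miRNAs.

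All 3 hairpins lie on the minus strand of mouse chromosome 5 (GRCm38), within 498 bases. The hairpin of miR-106b is at chr5:138165737-138165818, that of miR-93 at chr5:138165523-138165610 and that of miR-25 at chr5:138165321-138165404, with 126 bases between the first and the second and 118 between the second and the third. In the GENCODE annotation they share 1 intron of Mcm7 (chr5:138164583-138172422, minus strand), the intron between exons 13 and 14 of a protein-coding transcript at chr5:138165162-138165909. The only Mcm7 exon over a hairpin belongs to a retained intron transcript that covers miR-93 and miR-25. The hairpins are printed as RefSeq gives them (GRCm38.p6), because both arms of each were measured, and the capitals mark the 5p arm and then the 3p arm.
miR-106b: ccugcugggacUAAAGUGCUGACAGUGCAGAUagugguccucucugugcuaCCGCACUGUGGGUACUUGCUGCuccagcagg
miR-93: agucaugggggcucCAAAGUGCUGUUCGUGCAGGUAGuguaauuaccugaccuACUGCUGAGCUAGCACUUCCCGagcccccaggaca
miR-25: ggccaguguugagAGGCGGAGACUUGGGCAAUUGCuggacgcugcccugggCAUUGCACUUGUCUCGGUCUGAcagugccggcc

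The mature miRNAs fall into groups by seed, shown in capitals. AAAGUGC is the seed of miR-106b-5p and miR-93-5p, and 4 other miRNAs of the table carry it, all from the paralog clusters. How reads that fit more than 1 of these 6 sequences were counted is not given in the sources used here. In the best alignment, 18 bases of miR-106b-5p were identical in miR-17-5p, in miR-20a-5p and in miR-106a-5p. miR-93-5p and miR-17-5p were closer, with 21 identical bases, 1 mismatch and 2 gaps.
miR-106b-5p: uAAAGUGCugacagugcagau
miR-93-5p: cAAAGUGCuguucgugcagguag
miR-17-5p: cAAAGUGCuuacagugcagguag
miR-20a-5p: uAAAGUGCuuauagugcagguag
miR-20b-5p: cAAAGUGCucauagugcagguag
miR-106a-5p: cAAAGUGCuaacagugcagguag

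AUUGCAC is the seed of miR-25-3p and of 5 other miRNAs of the table. It is the seed of the miR-92 family, of miR-363-3p from the miR-106a-363 cluster, of miR-367-3p from the pluripotency cluster of miR-302 and of miR-32-5p. The closest to miR-25-3p was miR-92a-3p, with 18 identical bases in the best alignment.
miR-25-3p: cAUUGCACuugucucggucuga
miR-92a-3p: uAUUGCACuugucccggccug
miR-92b-3p: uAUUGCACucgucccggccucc
miR-363-3p: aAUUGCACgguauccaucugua
miR-367-3p: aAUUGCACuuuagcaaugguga
miR-32-5p: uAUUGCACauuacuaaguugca

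The other arm of each hairpin has a seed that no other miRNA of the table shares, among the 463 of 592 miRNAs that matched a mature RefSeq sequence.
miR-106b-3p: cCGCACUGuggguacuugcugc
miR-93-3p: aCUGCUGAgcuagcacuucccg
miR-25-5p: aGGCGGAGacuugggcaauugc

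The deposited values are signals on the scale of normalized read counts, so that the number of reads behind them is unknown. They summed to between 3751519 and 5551715 in the Trim71-/- libraries and between 2742673 and 4332525 in the Trim71fl/fl libraries of the 5 pairs. In all 6 members, as in 591 of the 592 miRNAs, the Trim71-/- and the Trim71fl/fl value of 1 day add up to the same number on every day, within 0.1%. The 2 libraries of a day therefore mirror each other, and both groups have the same SD. Levels cannot be compared between days or clones, only between the genotypes within a day. As the sum is fixed on the scale of the values, a same-day log2 difference depends on this sum as well as on the difference in signal. The fold changes before the batch correction, and their spread between days, are therefore unknown. In all 6 members the value of day 2 was the mean of the remaining Trim71fl/fl values. The miRNAs of the miR-290 to miR-295 and miR-302 clusters, which mark embryonic stem cells, made up 55.5% to 59.8% of every library of the 5 pairs. The 8 fibroblast miRNAs made up 0.364% to 0.713% of a Trim71-/- library and 0.476% to 0.815% of a Trim71fl/fl library, and the 4 blood miRNAs at most 0.126% of any. The share of the 8 neural miRNAs did not overlap between the genotypes, with 0.158% to 0.182% in Trim71-/- and 0.124% to 0.155% in Trim71fl/fl. Their summed signal as deposited did overlap, at 5927 to 9249 in Trim71-/- and 3393 to 6715 in Trim71fl/fl. The constant same-day sums give the pair means of these markers nearly the same value on every day. The narrow ranges of their shares are thus partly imposed. The part of these markers in the results on the cluster was not tested.

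The cluster was abundant in both genotypes. Its 6 miRNAs together made up 0.725% to 1.52% of a Trim71-/- library and 0.797% to 1.87% of a Trim71fl/fl library. By its mean over the 10 paired libraries, miR-25-3p ranked 22nd of the 592 miRNAs, miR-93-5p 28th and miR-106b-5p 54th. The other arms followed, with miR-106b-3p at rank 91, miR-25-5p at rank 188 and miR-93-3p at rank 304. This order held in 10 of 10 libraries. The ranges of its upper pair overlapped, since miR-25-3p lay between 16273 and 25084 and miR-93-5p between 11881 and 19986, and within a library miR-25-3p was 1.03 to 1.74 times miR-93-5p. From miR-93-5p downwards, no range overlapped the next. The sum of both arms also put miR-25 above miR-93 and miR-93 above miR-106b in 10 of 10 libraries. The constant same-day sums give the pair means the same order on every day. The 10 libraries are therefore not separate observations of either order. In the primary transcript the hairpins stand in the opposite order, with miR-106b first.

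**Figure D1:**
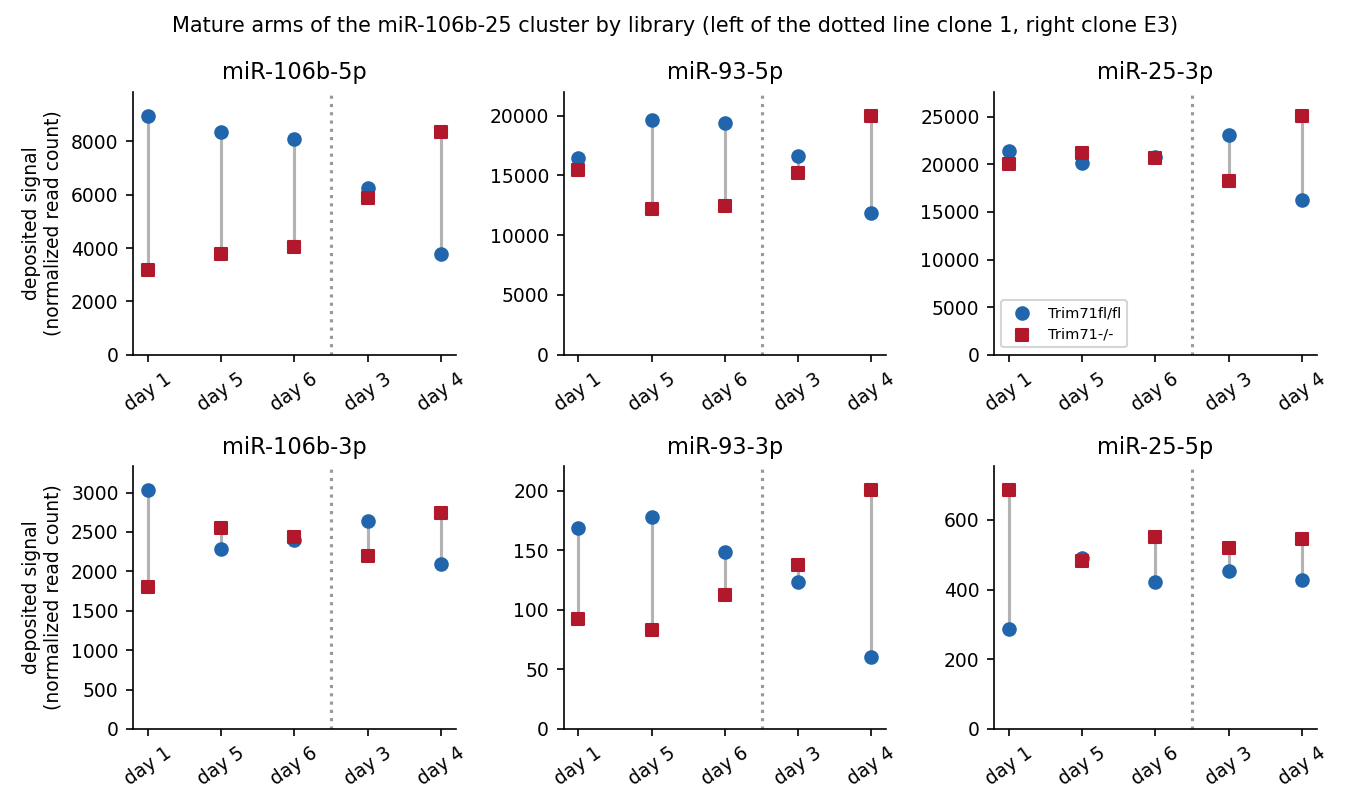
Deposited signal (normalized read count scale, y axis, from 0) of each mature arm in the 10 paired libraries, by day (x axis), with squares for Trim71-/-, circles for Trim71fl/fl and a line joining each same-day pair. The days of clone 1 are left of the dotted line and those of clone E3 right of it. On day 4 the squares lie above the circles in all 6 panels, and for miR-106b-5p they lie below on the other 4 days.

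Across the 5 pairs, no member of the cluster passed the 2 cutoffs used in the study together (1.5-fold either way, and p under 0.05 before adjustment), and none had an adjusted p under 0.05. Of all 592 miRNAs, 5 (0.845%) were past those cutoffs as higher in Trim71-/- and 27 (4.56%) as lower. None (0%) had an adjusted p under 0.05 in the limma fit across all miRNAs, where 32 had an unadjusted p under 0.05 and the smallest adjusted p was 0.607. No member went the same way on all 5 days, against 31 miRNAs (5.24%) that were higher and 37 (6.25%) that were lower in Trim71-/- on all 5 days. The median log2 fold change of the members was -0.09, beside 0.03 over all miRNAs.

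miR-106b-5p had the largest fitted difference of the 6. On days 1, 3, 4, 5 and 6, in this order, its signal was 3184, 5892, 8367, 3776 and 4039.5 in Trim71-/-. The Trim71fl/fl values of the same days were 8960.1, 6252, 3776, 8368 and 8104. It was thus lower in Trim71-/- on 4 of 5 days and higher on day 4, and the groups overlapped. The means were 5052 ± 2112 in Trim71-/- and 7092 ± 2112 in Trim71fl/fl (SD, n = 5). The log2 fold change was -0.52 (SE 0.45, 95% interval -1.60 to 0.57, limma adjusted p = 0.666), and the exact permutation of genotypes within days gave a two-sided p of 0.312, where the smallest p that 5 pairs allow is 0.0625. The difference did not exceed the spread between days. Without day 4 it was -0.93 (limma unadjusted p = 0.0348), past both cutoffs. In that fit 44 of the 592 miRNAs were past them as lower, against 27 over the 5 pairs. In these bulk libraries, fewer cells with a miRNA and less of it per cell cannot be told apart.

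miR-93-5p, with the same seed, took the same directions, with smaller differences on 4 of 5 days and a larger one on day 3. In the same order of days, Trim71-/- cells had 15443, 15220.2, 19986, 12193.5 and 12435. Trim71fl/fl cells had 16423, 16646, 11881, 19673 and 19431. The log2 fold change was -0.16 (SE 0.30, 95% interval -0.90 to 0.58, limma adjusted p = 0.832), with means of 15056 ± 3144 and 16811 ± 3144 (SD, n = 5). With a pair left out, this fold change ranged from -0.39 (without day 4) to -0.03 (without day 5). The same-day log2 differences were lowest on days 5 and 6, at -0.69 and -0.64, and -0.09 on day 1.

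miR-25-3p, the most abundant member, lay close to 0. Its signal in Trim71-/- was 19999.6, 18293, 25084, 21189 and 20616 on days 1, 3, 4, 5 and 6. In Trim71fl/fl it was 21357, 23064, 16273, 20168 and 20741. The same-day log2 differences were within 0.10 of 0 on the 3 days of clone 1, and the 2 days of clone E3 went opposite ways, at -0.33 and 0.62. With each library divided by its total, the days of clone 1 moved away from 0, to -0.30 on day 1, -0.95 on day 5 and -0.22 on day 6. The log2 fold change was 0.05 (SE 0.25, limma adjusted p = 0.941), and its 95% interval ran from -0.57 to 0.67.

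Of the less abundant arms, miR-25-5p was the only member with a higher fitted level in Trim71-/- apart from miR-25-3p. It had 685.5, 518.4, 544.0, 481.4 and 550.0 in Trim71-/- on days 1, 3, 4, 5 and 6, and 287.1, 454.2, 428.6, 491.2 and 422.6 in Trim71fl/fl. It was higher in Trim71-/- on 4 of 5 days, and day 5 was close to level. Divided by totals it was still higher on 4 of 5 days, and day 5 was at -1.04 on the log2 scale. The means were 556 ± 77.4 and 417 ± 77.4 (SD, n = 5), with a log2 fold change of 0.43 (SE 0.28, 95% interval -0.26 to 1.12, limma adjusted p = 0.645, exact permutation p = 0.125). Day 1 carried much of it, and without that day the log2 fold change was 0.22.

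miR-106b-3p, the partner arm of miR-106b-5p, had 1803, 2194, 2735, 2547 and 2432 in Trim71-/- and 3030.2, 2639, 2099, 2286 and 2401 in Trim71fl/fl, in the same order of days. It was lower in Trim71-/- on days 1 and 3 and higher on the other 3 days. Divided by totals it was lower on 4 of 5 days, since day 5 went from 0.16 to -0.86 on the log2 scale and day 6 from 0.02 to -0.19. Its log2 fold change was -0.09 (SE 0.27, 95% interval -0.75 to 0.57, limma adjusted p = 0.878).

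miR-93-3p, the least abundant member, had 92.3, 137.7, 200.4, 82.7 and 112.6 in Trim71-/- and 168.5, 123.1, 60.5, 178.2 and 148.3 in Trim71fl/fl. Its signal was below that of the partner library on the 3 days of clone 1 and was above it on both days of clone E3, which gave a log2 fold change of -0.10 (SE 0.46, 95% interval -1.23 to 1.03, limma adjusted p = 0.939). The SD of its 5 same-day log2 differences was 1.12, and that of miR-106b-5p 1.07, both above the median of 0.93 over all miRNAs. The other 4 members varied less between days, with SDs from 0.35 to 0.58.

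Day 4 stood apart within the cluster. On that day 6 of 6 members were higher in Trim71-/-, by 0.34 to 1.71 on the log2 scale, where 50.3% of all miRNAs were higher. The median of the same-day differences of the members was 0.69 on day 4, against -0.42, -0.11, -0.36 and -0.20 on days 1, 3, 5 and 6. Day 4 was also the only day on which the summed signal of the library was lower in Trim71-/- (3751519 against 4332525), and with each library divided by its total all 6 members were still higher on that day, by 0.55 or more. The summed fibroblast miRNAs were 13640.3 in Trim71-/- and 35331 in Trim71fl/fl on day 4 and higher in Trim71-/- on the other 4 days. As a share of the library they were also lower on day 4, at 0.364% against 0.815%. The summed blood miRNAs were higher in Trim71-/- on day 4 only (2413 against 2039, or 0.0643% against 0.0471% of the library). The summed neural miRNAs were 5927 against 6715 on day 4, the only day on which they were lower in Trim71-/-, and their share of the library was 0.158% against 0.155%. The miRNAs of embryonic stem cells made up 58.7% and 58.0% of these libraries. Of the 8 fibroblast miRNAs, 7 were higher in Trim71-/- on day 4 all the same, and the part of these values in the result was not tested.

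The second comparison was between the clones, each of which has its own Trim71fl/fl and Trim71-/- libraries. In clone 1, miR-106b-5p was lower in Trim71-/- by 1.21 on the log2 scale, with same-day differences from -1.49 on day 1 to -1.004 on day 6 (log2 fold change -1.21, SE 0.40, limma unadjusted p = 0.0259, adjusted p = 0.398). It was the only member past both cutoffs there, among 50 of 592 miRNAs (8.45%) that were past them as lower. In clone E3 its log2 fold change was 0.53 (SE 0.48), from -0.09 on day 3 and 1.15 on day 4. The difference between the clones was 1.75 (SE 0.63, 95% interval 0.16 to 3.33), with an unadjusted p of 0.0363 and an adjusted p of 0.627 in limma. It was 1.13 without day 4, 2.36 without day 3 and 2.26 with libraries divided by their totals. An unadjusted p under 0.05 for this difference was found in 33 of 592 miRNAs (5.57%), and 1 (0.169%), miR-136-5p, named here because it was the only one, had an adjusted p under 0.05. The median log2 fold change of the 4 blood miRNAs was -1.55 in clone 1 and -0.22 in clone E3. It was -0.19 and 0.58 for the 8 fibroblast miRNAs and 0.39 and 0.19 for the 8 neural miRNAs. For the miRNAs of embryonic stem cells it was -0.08 and -0.06. In the Trim71-/- libraries of days 1 and 6, both of clone 1, 1 of the 4 blood miRNAs was at the lowest value of the table, 1. So were 1 miRNA of embryonic stem cells in Trim71-/- on day 1 and 1 fibroblast miRNA in Trim71fl/fl on day 4. The part of these markers in the difference between the clones was not tested.

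miR-93-3p showed the other large clone difference, with a log2 fold change of -0.79 (SE 0.44) in clone 1 and 0.94 (SE 0.54) in clone E3. The difference of 1.72 (SE 0.69, 95% interval -0.04 to 3.48) had an unadjusted p of 0.0534 and an adjusted p of 0.627 in limma, and it was 0.95 without day 4 and 2.4975 without day 3. miR-93-5p was at -0.47 in clone 1 and 0.31 in clone E3, and the difference of 0.78 had an adjusted p of 0.652, with 0.35 without day 4 and 1.22 without day 3. Thus 3 of 6 members, miR-106b-5p, miR-93-5p and miR-93-3p, were lower in Trim71-/- on all 3 days of clone 1, as were 24.2% of all 592 miRNAs. Divided by totals, miR-106b-3p and miR-25-3p were too, which made 5 of 6 members against 39.4% of all miRNAs. The other 3 members had smaller differences between the clones. miR-106b-3p was at -0.19 in clone 1 and 0.06 in clone E3, miR-25-3p at -0.01 and 0.14, and miR-25-5p at 0.53 and 0.27, and each difference had an adjusted p over 0.8. Divided by totals, the difference between the clones was 0.77 for miR-106b-3p and 0.67 for miR-25-3p, beside 1.30 for miR-93-5p. The clones were sampled on different days, so that clone and day cannot be told apart, and clone E3 rests on 2 days that went opposite ways in 4 of 6 members.

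**Figure D2:**
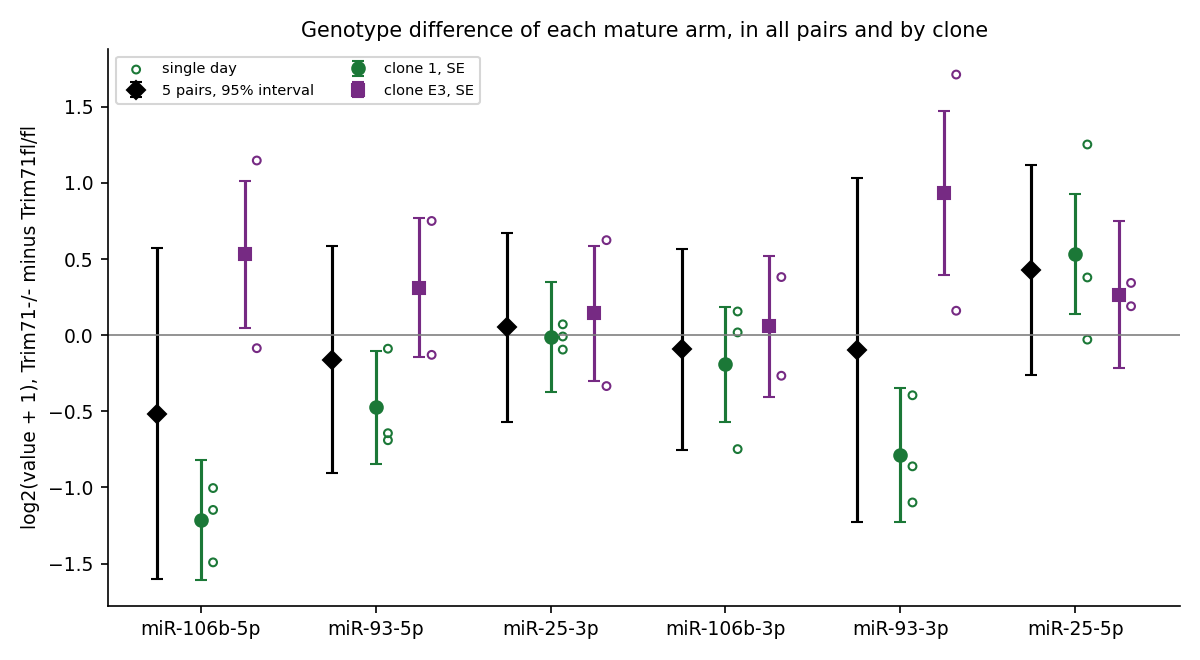
Genotype difference of each mature arm on the log2(value + 1) scale (y axis, Trim71-/- minus Trim71fl/fl), with diamonds for the fit over 5 pairs and its 95% interval, filled circles for clone 1 and squares for clone E3 with their SE, and open circles for single days in the colour of their clone. The intervals of all 6 arms include 0 over the 5 pairs, and miR-106b-5p and miR-93-3p have the widest gap between the clones.

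The arms of a hairpin can be compared within a library, by a share that an equal fold change of both deposited values leaves unchanged. Each arm has its own constant same-day sum, so that the pair means of both arms are the same on every day. How steady the shares and ratios are between libraries is therefore partly imposed, and the 10 libraries are not separate observations of them. miR-93 was almost wholly present as its 5p arm, at 99.0% to 99.5% of the hairpin's signal in the 10 libraries, and miR-25 as its 3p arm, at 96.7% to 98.7%. miR-106b was more even. Its 5p arm held 63.8%, 72.9%, 75.4%, 59.7% and 62.4% of the signal in Trim71-/- on days 1, 3, 4, 5 and 6, and 74.7%, 70.3%, 64.3%, 78.5% and 77.1% in Trim71fl/fl. The share was lower in Trim71-/- on the 3 days of clone 1 and higher on both days of clone E3. The mean was 66.8% ± 6.86 in Trim71-/- and 73.0% ± 5.79 in Trim71fl/fl (SD, n = 5), and the groups overlapped.

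The log2 ratio of 5p to 3p was then fitted for the 179 hairpins with both arms in the table, of which none (0%) had an adjusted p under 0.05, the smallest being 0.835, and 3 an unadjusted p under 0.05. For miR-106b the ratio differed by -0.42 between Trim71-/- and Trim71fl/fl (SE 0.45, 95% interval -1.50 to 0.65, limma adjusted p = 0.835), with -0.72 without day 4 and -0.20 without day 5. It differed by -1.02 in clone 1 and 0.47 in clone E3, and the difference between the clones, 1.497 (SE 0.74, 95% interval -0.36 to 3.35), had an unadjusted p of 0.0946 and an adjusted p of 0.574. For miR-25 the ratio of 5p to 3p was higher by 0.38 in Trim71-/- (SE 0.39, adjusted p = 0.835), or 0.13 without day 1, and for miR-93 it differed by -0.06 (SE 0.40, adjusted p = 0.983). No hairpin of the 179 (0%) had an adjusted p under 0.05 for a difference between the clones, and 9 had an unadjusted p under 0.05.

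**Figure D3:**
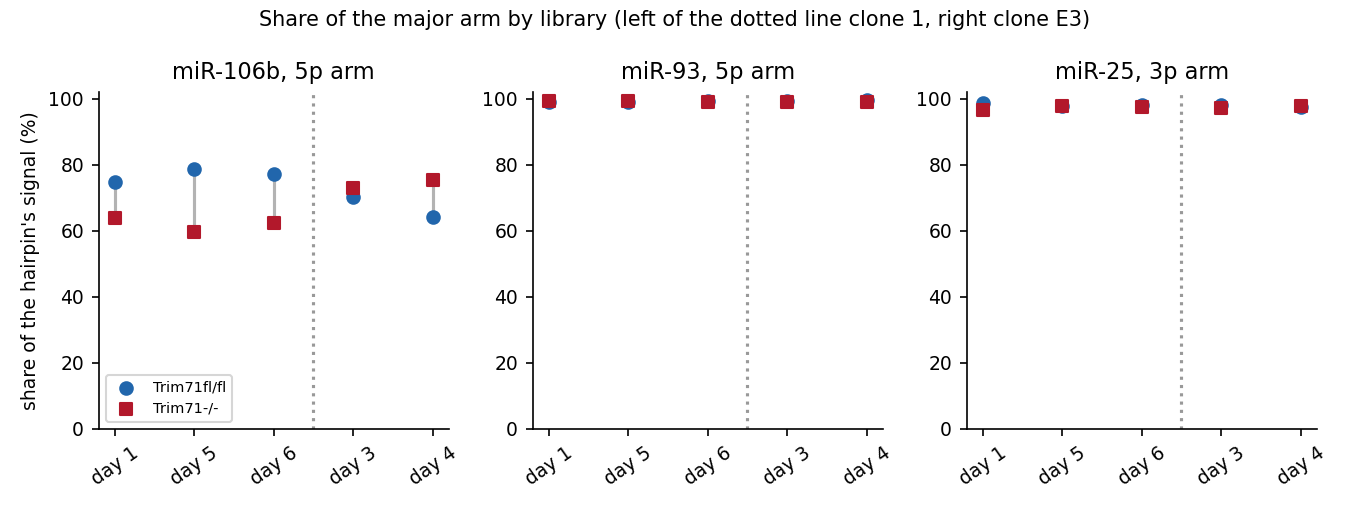
Share of the hairpin's signal in its major arm (y axis, percent, from 0) in the 10 paired libraries by day (x axis), with squares for Trim71-/- and circles for Trim71fl/fl. miR-106b ranges from 59.7% to 78.5% and changes side between the clones, while miR-93 and miR-25 stay above 96% in every library. The constant same-day sums of each arm partly impose this steadiness.

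The seed groups were described beside the cluster, without a test. miR-106b-5p and miR-93-5p together held 18.4% to 23.9% of the signal of the 6 AAAGUGC miRNAs in Trim71-/- and 19.2% to 29.2% in Trim71fl/fl. The most abundant of the 6 was miR-20a-5p from miR-17-92, with a mean of 40676 over the 10 libraries, followed by miR-20b-5p with 19383 and miR-93-5p with 15933. miR-106b-5p was the least abundant, with 6072. None of the 6 was past both cutoffs, and their median log2 fold change was -0.27.

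The AAAGUGC miRNAs took mostly the same side on each day, although they come from 3 clusters. They were lower in Trim71-/- in 5 of 6 on day 1, where 51.2% of all miRNAs were lower, with miR-20a-5p at 0.14 on the log2 scale as the exception. On day 3 they were lower in 6 of 6 (50.8% of all miRNAs), on day 5 in 6 of 6 (50.2%) and on day 6 in 6 of 6 (49.0%). On day 4 they were higher in 6 of 6, from 0.75 for miR-93-5p to 2.39 for miR-20a-5p. Their summed signal on day 4 was 153767 in Trim71-/- and 53672 in Trim71fl/fl, and on day 6 it was 69316 in Trim71-/- and 138123 in Trim71fl/fl. In clone 1 their median log2 fold change was -0.72 and in clone E3 0.42, beside 0.01 and 0.02 over all miRNAs. The 6 share most of their bases, and how much reads assigned among them contribute was not tested.

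The AUUGCAC miRNAs lay on both sides of 0 on every day. miR-25-3p held 19.8% to 28.6% of their signal in Trim71-/- and 16.5% to 24.9% in Trim71fl/fl, after miR-92a-3p with a mean of 57281 over the 10 libraries against 20678.5 for miR-25-3p. Their median log2 fold change was -0.01. On day 4, miR-25-3p and miR-32-5p were higher in Trim71-/-, at 0.62 and 0.35, and the other 4 were lower. miR-363-3p was lower in Trim71-/- on all 5 days, with a log2 fold change of -0.44 (SE 0.24, limma adjusted p = 0.620).

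**Figure D4:**
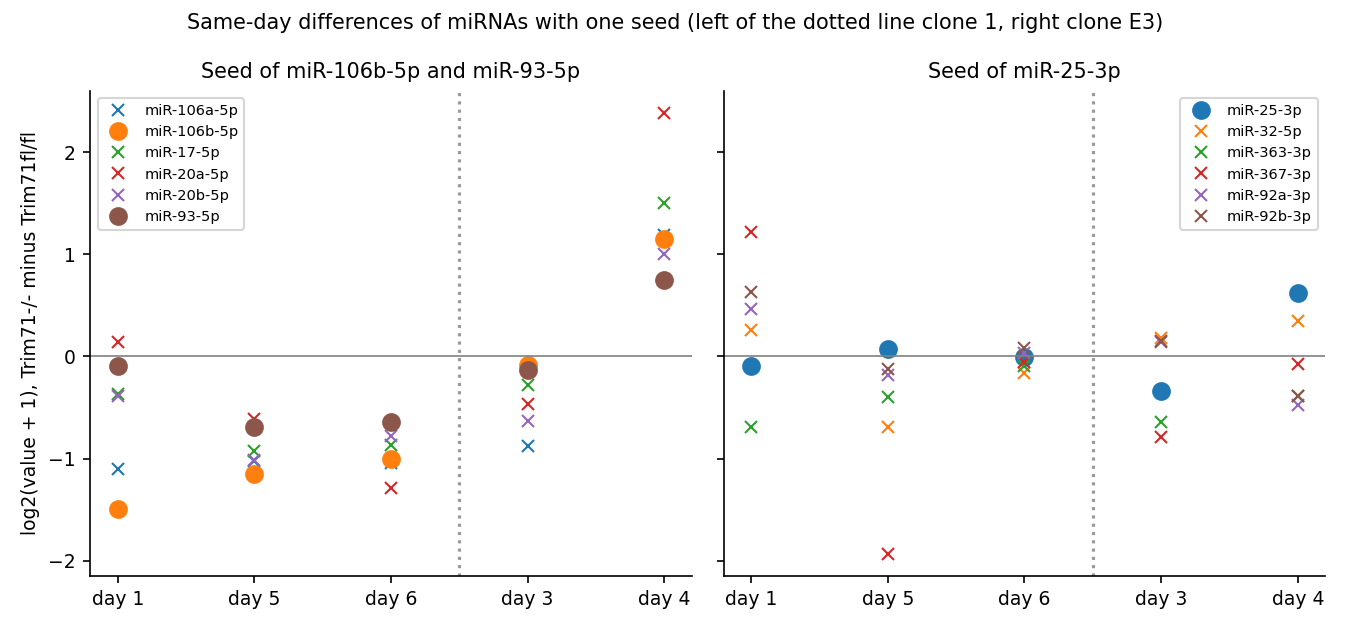
Same-day differences on the log2(value + 1) scale (y axis, Trim71-/- minus Trim71fl/fl) of the miRNAs that share a seed with miR-106b-5p and miR-93-5p or with miR-25-3p, by day (x axis), with filled circles for members of the cluster and crosses for the others. In the first group 6 of 6 lie above 0 on day 4 and below 0 on days 3, 5 and 6, and the second group is spread on both sides of 0 on each day.

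The paralog clusters were described in the same way. Of the 12 miRNAs of miR-17-92, 9 had a lower fitted level in Trim71-/- and 3 a higher one, where 289 of all 592 miRNAs had a lower one. The median log2 fold change was -0.24, with -0.61 in clone 1 and 0.42 in clone E3. None was past the cutoffs. Of the 12 miRNAs of the X-linked miR-106a-363 cluster, 10 had a lower and 2 a higher fitted level, 1 was past the cutoffs as lower (27 of 592, or 4.56%, over all miRNAs), and the median was -0.42, with -0.61 in clone 1 and -0.29 in clone E3. For the 6 members of miR-106b-25 the medians were -0.33 in clone 1 and 0.29 in clone E3. The comparisons of these lists use the same 10 libraries, and 2 miRNAs with copies in both paralog clusters are counted in each.

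The miRNAs whose same-day differences lay closest to the members' median profile were looked up among the 323 miRNAs with a mean signal of at least 100. The closest were miR-186-5p, with a root mean square difference of 0.12 on the log2 scale over the 5 days, miR-466f with 0.14, miR-700-3p with 0.23, miR-466k with 0.24 and miR-107-3p also with 0.24. The members themselves lay 0.28 to 0.83 from this profile, with miR-25-3p nearest and miR-25-5p farthest.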

How the data were processed

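Small RNA libraries of 11 mES cell samples were made, per the study's methods, with a NEBNext Multiplex Small RNA kit, while the labels name a TruSeq RNA kit. Per the submitters' processing notes, CASAVA 1.8, Bowtie2 2.2.1, Partek 6.6, DESeq2 and the mm10 build were used, and the methods add FLICKR and miRBase. How reads that fit several miRNAs were counted, and whether strand was used, is not given in the sources used here. The authors normalized the counts, corrected them for batch, raised values under 1 to 1 and left out low miRNAs, and the deposited values are thus a signal on the count scale, not counts. A count test was therefore not used. No member was at this lowest value, and 9677 of 10269 rows hold no values.

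The labels pair 10 libraries by day and clone, and in these the genotypes were compared with limma 3.58.1 in R 4.3.3 on log2(value + 1), day as a block and without trend. P-values were adjusted by Benjamini-Hochberg over 592 miRNAs or 179 hairpins. Genotype by clone and the 5p to 3p ratio were fitted the same way, and single members were also tested by exact permutation within days (32 sign patterns, two-sided). Same-day deviations from the group means mirror each other, as the constant sums impose. Fold changes are on the log2(value + 1) scale. The fits were tested on simulated data. Named miRNAs are the members, those that share a seed with a guide arm, and the 5 closest to the members' median profile among those with a mean of at least 100, and miR-136-5p was named outside this rule after its values were seen. The members and lists were chosen with earlier results of these data known. Tables and plots were made in Python 3.11.15 (pandas 2.3.3; matplotlib 3.10.9). Sequences came from RefSeq and gene models from GENCODE. The alternatives were no block, clone in place of day, 11 libraries, each pair left out, each clone alone, 3 scalings, pseudocounts 0.1 and 10, a filter on the mean, limma with trend and untransformed values.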

Additional observations from a re-analysis of the deposited data

Results flagged for a closer look

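The difference in genotype effect between clone E3 and clone 1 drew attention in miR-106b-5p, by its own test. It was 1.75 on the log2 scale (unadjusted p = 0.0363, adjusted p = 0.627 in limma), with Trim71-/- lower on all 3 days of clone 1 and higher on 1 of 2 days of clone E3. It was 1.13 without day 4 and 2.36 without day 3.

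In miR-93-3p every day of clone 1 went one way and both days of clone E3 went the other, with a difference of 1.72 between the clones (unadjusted p = 0.0534, adjusted p = 0.627 in limma). How many of all 592 miRNAs have this pattern of signs was not counted, so that it cannot be called particular to miR-93-3p. Without day 4 the difference was 0.95, and without day 3 it was 2.4975.

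The 5p to 3p ratio of miR-106b also took opposite sides in the clones on every day, a pattern that was not counted over all hairpins. The ratio differed by 1.497 between the clones (unadjusted p = 0.0946, adjusted p = 0.574 in limma), and this difference ranged from 1.20 to 1.79 with a pair left out. This ratio shares its values with the first result and is not independent of it.

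By Dixon's test at the 95% level, no single library was an outlier of its group in the 12 sets of 5 values, 1 for each member and genotype. Because same-day values mirror each other, these are only 6 separate sets.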

How the results depend on the processing

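No member was past the thresholds as higher under any of the 18 alternatives. As lower, the count was 0 over the 5 pairs and 1 in clone 1 alone, and it ranged from 0 to 1 when each pair was left out in turn, with the 1 found without the pair of day 4. That member was miR-106b-5p, at -1.21 in clone 1 alone (limma unadjusted p = 0.0188) and 0.53 in clone E3 alone. Leaving out a pair gave -0.93 (without day 4, limma unadjusted p = 0.0348) to -0.27 (without day 1).

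The fit without the replicate block left the log2 fold changes of the members as they were and called none of them, and gave miR-25-5p, at 0.43, an unadjusted p of 0.0357 in limma, against 0.0521 with clone in place of day, 0.0208 with all 11 libraries and 0.181 with the block. In each member the day 2 value is the mean of the other Trim71fl/fl values, so that this library adds no separate replicate. The 2 values of a day mirror each other, so that fits without day as block take them as separate values though they hold 1 difference. Their p-values are therefore too small and their counts too high, also with clone in place of day and with all 11 libraries. Over all miRNAs the fit without the block called 42 as higher and 59 as lower, against 5 and 27 with the block. Clone in place of day gave 36 and 57, and all 11 libraries gave 45 and 71. Leaving out a pair gave 4 to 23 as higher (23 without day 4, 8 without day 5) and 11 to 44 as lower (11 without day 1, 44 without day 4, 15 without day 6). Clone 1 alone gave 14 and 45, and clone E3 alone 8 as higher. Division by the total gave 2 and 48, and division by the total without miR-290 to miR-295 gave 2 and 43. A pseudocount of 10 gave 8 as higher, untransformed values 9 as higher, and the filter on a mean of 100 gave 10 as lower, over fewer miRNAs.

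Division by the total moved the median of all miRNAs from 0.03 to -0.24 (-0.22 without miR-290 to miR-295), and all 6 members went down with it. miR-25-3p went from 0.05 to -0.22 (-0.20), miR-25-5p from 0.43 to 0.16 (0.18), miR-106b-3p from -0.09 to -0.36, miR-93-3p from -0.10 to -0.36, miR-93-5p from -0.16 to -0.43 and miR-106b-5p from -0.52 to -0.79. The signs of small differences turned elsewhere too. miR-25-3p was at -0.011 in clone 1 alone and from -0.092 to 0.15 with a pair left out. In clone E3 alone, miR-106b-3p was at 0.058, miR-93-3p at 0.94, miR-93-5p at 0.31 and the 5p to 3p ratio of miR-106b at 0.47. That ratio of miR-93 was 0.31 in clone 1 alone and from -0.27 to 0.16 with a pair left out, and those of miR-106b and miR-25 then ranged from -0.72 to -0.20 and from 0.13 to 0.54. With a pair left out, miR-106b-3p ranged from -0.21 to 0.072 and miR-93-3p from -0.55 to 0.15. The clone difference of miR-106b-3p then ranged from -0.075 to 0.57, of miR-25-3p from -0.32 to 0.63, of miR-106b-5p from 1.13 to 2.36, of miR-93-3p from 0.95 to 2.4975, of miR-93-5p from 0.35 to 1.22 and of miR-25-5p from -0.55 to 0.092, and by totals it was 0.25 for miR-25-5p (0.31 without miR-290 to miR-295), 0.77 (0.83) for miR-106b-3p and 0.67 (0.74) for miR-25-3p. The cause was not tested.

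The median of the members was -0.36 to 0.29 over all alternatives. Values before the lowest value was set were not fitted, since no member is at it, and untransformed values have no fit by clone or arm. Read numbers are unknown, so that the precision rests on the 5 pairs alone.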
